A study of Mus musculus with 14 samples.

Results

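Alveolar type 1 genes were followed by name through the RNA of 14 mouse lung tumors: Ager, Hopx, Pdpn, Aqp5, Cav1, Rtkn2, Clic5, Emp2, Akap5 and Cldn18. All 10 were found among the 52550 genes of the table, and all 10 were among the 16836 genes that passed the expression filter and were tested. Tumors were of 2 genotypes, 6 KPY-Ctrl and 8 KPY-Setd2KO. Both groups came from mice with floxed alleles of p53 (Trp53) and a Cre-activated yellow fluorescent protein (YFP) reporter. In both, a lentivirus carrying Cre, Cas9 and a guide RNA started the tumors, so p53 loss, Cas9 and Cre were common to them. The guide targeted Setd2, a histone H3 lysine methyltransferase gene, in KPY-Setd2KO, and a sequence of the bacterial beta-galactosidase gene in KPY-Ctrl. According to the study's methods, stage-matched adenocarcinomas were dissected and sorted for live YFP-positive cells, whereas the deposited labels describe RNA from cell lines, and this conflict was not resolved. Some tumors shared a mouse. Which ones is not stated, and the tests took each tumor as independent, which can make their p-values too small. The comparison asks how these genes differ between tumors with and without the Setd2-targeting guide.

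Alveolar type 1 cells are the thin, flat cells through which gas crosses into the capillaries, and they cover most of the alveolar surface. They arise from alveolar type 2 cells, the surfactant-producing cells, by way of a transitional state rich in keratin 8, and mouse lung adenocarcinomas mostly resemble type 2 cells. Several type 1 genes are not private to that cell: Cldn18, Emp2 and Hopx are also transcribed in type 2 cells or tumor cells, Pdpn in fibroblasts and lymphatic endothelium, and Cav1 in endothelium and fibroblasts. In bulk RNA, fewer cells of a type and less RNA per cell cannot be told apart.

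The other markers show what the tumors contained. Igfbp2 and Spock2, markers of mature type 1 cells, were the lowest of 20 further type 1 genes and ranged over the 14 tumors from 0 to 3.82 CPM (counts scaled to library size and TMM-normalised) and from 0.185 to 4.32 CPM, so both were low in every tumor. Others of that list were abundant, such as Krt7 at a KPY-Ctrl mean of 718 CPM, Tspan8 at 377 CPM and Gprc5a at 285 CPM. Surfactant genes were abundant, with Sftpc at a mean of 19501 CPM in KPY-Ctrl and 13265 CPM in KPY-Setd2KO. Setd2 itself was at 41.9 to 63.6 CPM in KPY-Ctrl tumors and 17.9 to 47.4 CPM in KPY-Setd2KO tumors, with a log2 fold change of -0.74 (standard error 0.22) and an adjusted p of 0.175. Total counts ranged from 20072236 to 51828846 per tumor. RNA of leukocytes varied most: a score of 10 leukocyte markers (mean log2 CPM) was at most 5.83 in 7 tumors, of which 3 were KPY-Ctrl (replicates 3, 4 and 5) and 4 KPY-Setd2KO (replicates 5 to 8), and at least 8.77 in the other 7. A score of 8 epithelial markers ran from 6.55 to 9.46, and among the 7 tumors with little leukocyte RNA it was higher in all 4 KPY-Setd2KO tumors than in all 3 KPY-Ctrl tumors. Of 10 endothelial and 6 tested fibroblast markers, none passed an adjusted p of 0.05 between genotypes. The median log2 fold change, KPY-Setd2KO over KPY-Ctrl, was 0.98 for the endothelial markers and -0.27 for the fibroblast markers. At an unadjusted p under 0.05, 1 endothelial marker was higher and 0 lower, against 13.7% of all genes in either direction. It was Pecam1 (0.93, unadjusted p 0.0135, adjusted p 0.237), at a mean of 10.1 CPM in KPY-Ctrl and 19.2 CPM in KPY-Setd2KO.

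The start sites of 3 of the genes are shown. Akap5 and Hopx were among the 4 members at an unadjusted p under 0.05 between genotypes, and a window each of Hopx and Cldn18 held a short motif. Pdpn met both conditions as well and is not shown. RefSeq windows (GRCm38.p6, 250 bases before to 50 bases after a start site) were found for 9 of the 10 genes, 12 windows in all, and Rtkn2 was not matched. The motifs searched were 3, each taken on both strands. GGAATG, the core of sites bound by TEAD factors, was in 0 of the 12 windows and in 14.7% of all 32851 windows. CAAGTG, the core bound by NK2 homeodomain factors such as the lung factor Nkx2-1 and also one form of the CANNTG E-box, was in 2 of the 12 (13.6% of all windows), in Hopx and in Cldn18. Both were windows at a start site inside the gene. Hopx and Cldn18 each had another window, at the 5′ end of the annotated gene, which held none of the motifs and is not shown. GTAAACA, bound by forkhead factors, was in 1, that of Pdpn (3.65% of all). Letters of these motifs are in capitals below, each sequence reads 5′ to 3′ along the gene's strand, and a match is a description of the letters, not a site.
Akap5, chr12:76324641-76324940, plus strand, no motif: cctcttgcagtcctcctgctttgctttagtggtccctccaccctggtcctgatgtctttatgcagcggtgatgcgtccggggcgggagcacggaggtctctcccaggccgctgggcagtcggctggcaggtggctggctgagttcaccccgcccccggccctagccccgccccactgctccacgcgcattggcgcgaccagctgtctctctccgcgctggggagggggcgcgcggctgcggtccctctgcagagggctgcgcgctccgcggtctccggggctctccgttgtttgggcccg
Hopx, chr5:77095218-77095517, minus strand, with the reverse complement of CAAGTG: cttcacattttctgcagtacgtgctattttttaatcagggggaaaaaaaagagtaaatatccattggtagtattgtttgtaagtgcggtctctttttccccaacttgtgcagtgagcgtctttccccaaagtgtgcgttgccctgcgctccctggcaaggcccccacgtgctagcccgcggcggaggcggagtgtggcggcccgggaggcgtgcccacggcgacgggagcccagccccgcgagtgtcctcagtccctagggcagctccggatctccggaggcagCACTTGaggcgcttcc
Cldn18, chr9:99710014-99710313, minus strand, with CAAGTG: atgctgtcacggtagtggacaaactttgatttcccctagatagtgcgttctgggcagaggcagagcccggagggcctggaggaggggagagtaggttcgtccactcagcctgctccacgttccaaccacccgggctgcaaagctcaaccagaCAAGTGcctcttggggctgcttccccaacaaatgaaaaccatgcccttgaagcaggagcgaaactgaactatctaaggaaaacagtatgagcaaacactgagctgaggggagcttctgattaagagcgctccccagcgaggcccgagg

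Per length of exons, the 10 genes spanned a wide range. Ager was highest, at a geometric mean of 190 CPM per kilobase over the 14 tumors, followed by Cldn18 at 90.4 and Aqp5 at 67.8. Pdpn (29.4), Hopx (24.0) and Emp2 (19.2) formed the middle, and Clic5 (10.1), Cav1 (9.84), Akap5 (6.82) and Rtkn2 (1.46) the lower end. The order of neighbours was the same in all 14 tumors only for Ager over Cldn18, Emp2 over Clic5 and Akap5 over Rtkn2. Aqp5 exceeded Pdpn in 13 tumors. Cldn18 exceeded Aqp5 in 11 and Hopx exceeded Emp2 in 11, whereas Pdpn and Hopx (9 of 14), Clic5 and Cav1 (8 of 14) and Cav1 and Akap5 (7 of 14) did not differ beyond the spread between tumors.

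**Figure D1:**
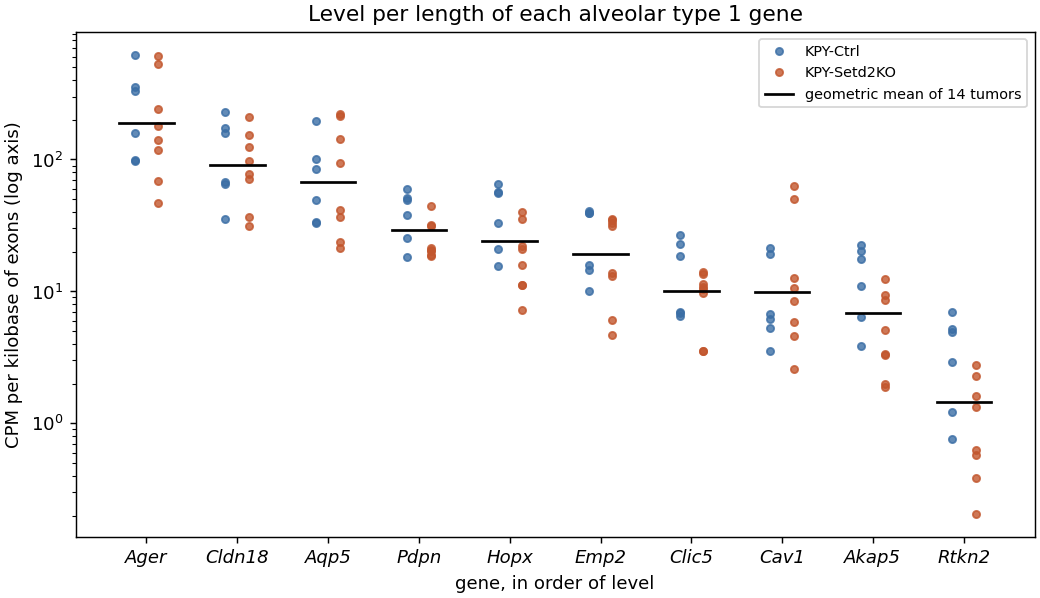
CPM per kilobase of merged exons on a log axis for each gene, with 1 point per tumor coloured by genotype and a line at the geometric mean. The levels fall from Ager (geometric mean 190) to Rtkn2 (1.46), and Cav1 has the 2 highest tumors of the lower genes, up to 62.6.

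Between the genotypes, no type 1 gene passed the test on all genes. A call required an adjusted p under 0.05 together with a log2 fold change beyond 1 in either direction. EdgeR's quasi-likelihood test called 0 of the 10 members and 0 of 16836 genes (background 0%), and DESeq2 called 0 of the 10 and 456 genes (background 2.29%). At an unadjusted p under 0.05, 4 of the 10 were lower in KPY-Setd2KO (Rtkn2, Akap5, Hopx and Pdpn) and none higher, against 6.8% of all genes lower. The median log2 fold change of the 10 was -0.46, with 8 below 0, beside a median of 0.03 over all genes tested. For none of the 10 did the genotypes separate without overlap on log2 CPM, against 0.244% of genes lower and 0.57% in either direction. In simulated counts with each gene's dispersion estimated from these tumors, 34.5% of genes changed by a log2 fold change of 1.5 had an adjusted p under 0.05. Genes were drawn independently there, so the simulation lacked the split of the tumors by leukocyte RNA that the genes share.

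Of the genes that act in signalling and transcription, Rtkn2 had the largest estimated difference. Rtkn2 (ENSMUSG00000037846.18, GRCm38 chromosome 10, 67979570 to 68059740) was the least abundant member per length. Its lowest, median and highest values were 4.25, 21.7 and 38.6 CPM in KPY-Ctrl and 1.15, 5.42 and 15.4 CPM in KPY-Setd2KO. The groups overlapped, but all 8 KPY-Setd2KO tumors lay under the KPY-Ctrl median and 4 of them under the lowest KPY-Ctrl tumor. That median fell between the 3 KPY-Ctrl tumors with much leukocyte RNA and the 3 with little. Those under the lowest KPY-Ctrl tumor were KPY-Setd2KO replicates 1, 2 and 4, with much leukocyte RNA, and replicate 6, with little. The share of all genes with such a pattern was not counted. KPY-Setd2KO over KPY-Ctrl gave a log2 fold change of -1.58 (95% interval -2.87 to -0.30), a fold of 0.333, with an unadjusted p of 0.0189 and an adjusted p of 0.258. The lowest tumor held 32 counts.

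Akap5 (ENSMUSG00000021057.15, chromosome 12, 76324891 to 76334153) encodes a scaffold that anchors protein kinase A at the membrane, and its promoter is the first of the sequences above. It ran from 26.5 through 97.5 to 154 CPM in KPY-Ctrl and from 12.9 through 29.1 to 84.4 CPM in KPY-Setd2KO (lowest, median, highest). Again all 8 KPY-Setd2KO tumors were under the KPY-Ctrl median and 4 under its lowest tumor, the same replicates as for Rtkn2. The median again fell between the KPY-Ctrl tumors with much and with little leukocyte RNA. Its log2 fold change was -1.24 (95% interval -2.29 to -0.18) with an adjusted p of 0.284.

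Hopx (ENSMUSG00000059325.14, chromosome 5, 77086988 to 77115121), the small homeodomain-only protein that binds no DNA itself, was at 23.4, 67.2 and 98.4 CPM in KPY-Ctrl and 11.03, 28.0 and 60.7 CPM in KPY-Setd2KO. The 3 highest tumors were KPY-Ctrl replicates 3, 5 and 4, those with little leukocyte RNA. All 8 KPY-Setd2KO tumors were under the KPY-Ctrl median, which again fell between the KPY-Ctrl tumors with much and with little. The log2 fold change was -1.0004 (95% interval -1.89 to -0.11), adjusted p 0.306. An antisense gene, Hopxos, shares 412 exon bases with Hopx, and Gm16212 shares 216 with Rtkn2. The strand setting of the counting was not given in the sources used here, so reads of those stretches may come from either gene.

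Among the surface receptors and membrane proteins, Ager was the most abundant. Ager (ENSMUSG00000015452.14, chromosome 17, 34597862 to 34600936) encodes the receptor for advanced glycation end products, which lies on the basal membrane of type 1 cells. It was at 209, 526.5 and 1321.5 CPM in KPY-Ctrl and at 101, 343 and 1292 CPM in KPY-Setd2KO. KPY-Ctrl replicate 3 and KPY-Setd2KO replicates 7 and 8 were highest, and the groups overlapped over most of their range. A log2 fold change of -0.20 was estimated (95% interval -1.48 to 1.08), adjusted p 0.93, so a difference of 1 on the log2 scale in either direction was within the interval.

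Pdpn (ENSMUSG00000028583.14, chromosome 4, 143267431 to 143299564), the mucin-type glycoprotein podoplanin, was at 33.1, 79.1 and 109 CPM in KPY-Ctrl and 33.6, 38.1 and 80.6 CPM in KPY-Setd2KO. Its groups shared their lower bound, while 7 of the 8 KPY-Setd2KO tumors were under the KPY-Ctrl median. The log2 fold change was -0.64 (95% interval -1.24 to -0.04), adjusted p 0.335. Emp2 (ENSMUSG00000022505.8, chromosome 16, 10281749 to 10313968), a membrane protein with 4 predicted membrane spans, was at 86.6, 237 and 353 CPM against 40.2, 195 and 307 CPM. Its log2 fold change was -0.30 (95% interval -1.37 to 0.76), adjusted p 0.859.

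Cav1 (ENSMUSG00000007655.16, chromosome 6, 17306335 to 17341452), the coat protein of caveolae, stood apart from the other members. It was at 12.2, 22.3 and 73.2 CPM in KPY-Ctrl and 8.94, 32.7 and 216 CPM in KPY-Setd2KO. KPY-Setd2KO replicates 5 and 6, at 216 and 174 CPM, were above every other tumor, and the next highest was KPY-Ctrl replicate 1. Its estimate was a log2 fold change of 0.92 (95% interval -0.64 to 2.48), adjusted p 0.638, and 0.39 without KPY-Setd2KO replicate 5. Of 6 tested caveola partners, 0 passed the adjusted threshold on genotype alone. Cavin2 alone (log2 fold change -1.29) was lower at an unadjusted p under 0.05, against 6.8% of all genes lower. Cavin3 (1.01, adjusted p 0.513) and Cavin1 (0.69, 0.659) were estimated higher, and Cav2, Ehd2 and Pacsin2 lay between -0.086 and -0.006. With the epithelial-marker score as a covariate, Cavin3 was at 0.81 (adjusted p 0.0353).

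Of the water and ion transport genes, Aqp5 (ENSMUSG00000044217.16, chromosome 15, 99590782 to 99594829), the water channel of the apical type 1 membrane, was at 86.5, 174 and 510 CPM in KPY-Ctrl and 55.3, 176 and 570 CPM in KPY-Setd2KO. KPY-Setd2KO replicates 7 and 8 exceeded every KPY-Ctrl tumor while 2 others lay under all of them. The log2 fold change was 0.25 (95% interval -1.05 to 1.56), adjusted p 0.905, and turned to -0.022 and -0.0045 without replicate 7 or 8. Clic5 (ENSMUSG00000023959.8, chromosome 17, 44188584 to 44280172), of the chloride intracellular channel family, was at 57.1, 112 and 236 CPM in KPY-Ctrl against 31.3, 93.3 and 123 CPM in KPY-Setd2KO. KPY-Ctrl replicates 3, 4 and 5 were its 3 highest tumors, and the log2 fold change was -0.62 (95% interval -1.51 to 0.27), adjusted p 0.563.

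Cldn18 (ENSMUSG00000032473.13, chromosome 9, 99689461 to 99717267), the claudin of alveolar tight junctions, was at 159, 505 and 1015 CPM in KPY-Ctrl and 140, 391 and 938 CPM in KPY-Setd2KO. The ranges nearly coincided. Its log2 fold change was -0.27 (95% interval -1.30 to 0.75), adjusted p 0.868, and it moved to -0.015 without KPY-Ctrl replicate 3 and -0.52 without KPY-Setd2KO replicate 7.

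**Figure D2:**
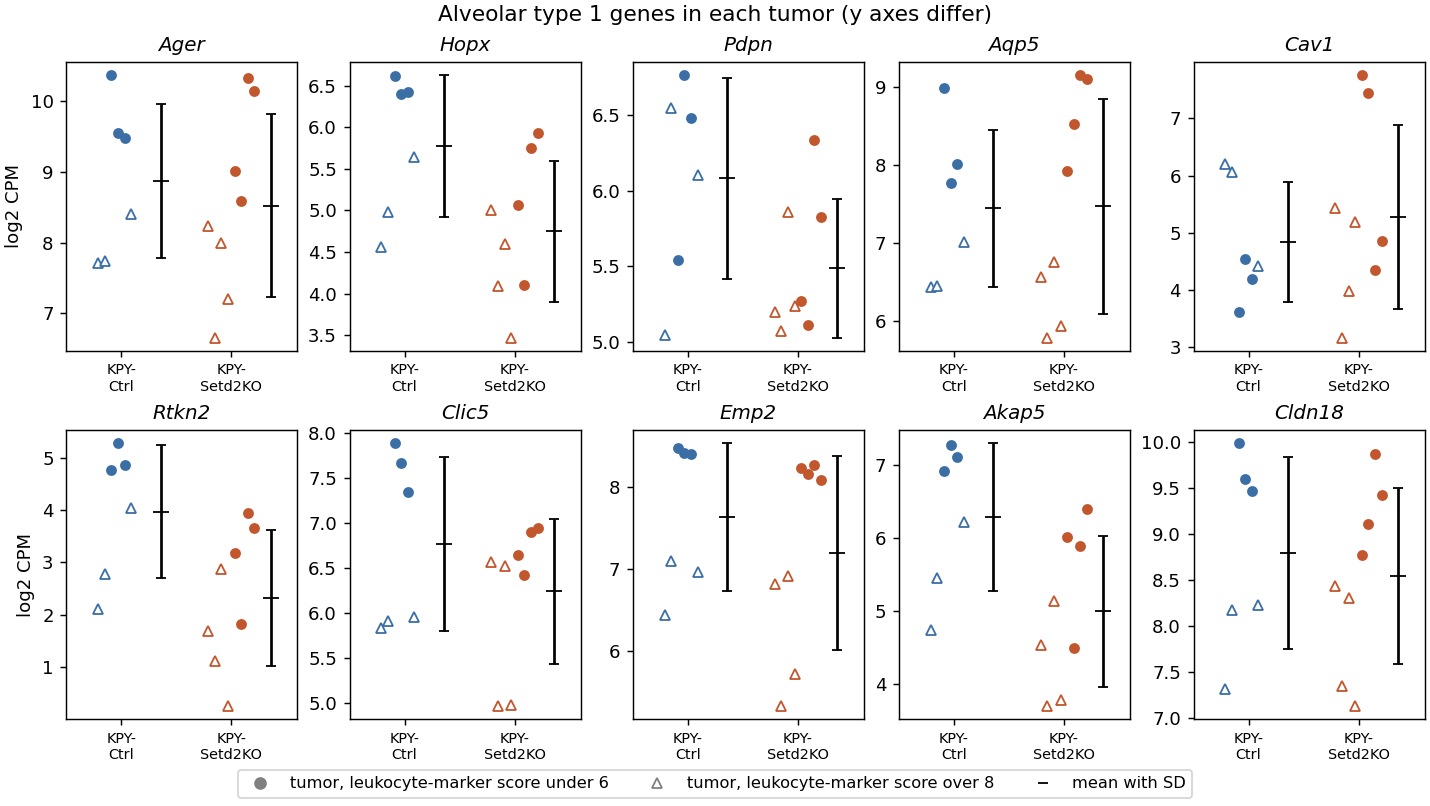
Log2 CPM of each gene in the 14 tumors, KPY-Ctrl in blue and KPY-Setd2KO in orange, with the mean and SD beside each group. Filled circles are the 7 tumors with a leukocyte-marker score of at most 5.83 and open triangles the 7 with at least 8.77. All circles lie above all triangles for Ager, Aqp5, Emp2 and Cldn18, and the 2 sets overlap for the other 6 genes. For Rtkn2, Akap5 and Hopx all 8 KPY-Setd2KO tumors lie under the KPY-Ctrl median, which falls between that group's circles and triangles.

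How much leukocyte RNA a tumor held went with most type 1 genes. In a model with genotype, 8 of the 10 fell as the leukocyte-marker score rose (edgeR, adjusted p under 0.05 over all genes), against a background of 28.4% of genes lower and 56.8% changed either way. Per unit of the score, the log2 change was -0.45 for Aqp5 (adjusted p 0.000197), -0.42 for Ager (0.00112) and -0.37 for Emp2 (4.19e-05). Cldn18 (-0.34), Rtkn2 (-0.35), Akap5 (-0.31), Clic5 (-0.26) and Hopx (-0.23) fell as well. Pdpn, at -0.04 (adjusted p 0.588), and Cav1, at -0.20 (0.287), did not pass. All 8 epithelial markers and 10 of 11 type 2 markers also passed in the lower direction, and 8 of 10 macrophage markers in the higher. The 10 leukocyte markers make up the score, so their own rise with it is no result. Since the scores fell into 2 separate sets, this slope is mainly a contrast between those sets of 7 tumors. Among the tumors with much leukocyte RNA, every member had a negative Spearman correlation with the score, from -0.89 (Akap5) to -0.29 (Cldn18). Among those with little, it was negative only for Emp2 (-0.29) and Cav1 (-0.14), and reached 0.57 for Pdpn.

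Within each set of 7, the relation to epithelial RNA differed by gene and set. Over the 7 tumors with much leukocyte RNA, the Spearman correlation with the epithelial score was 0.93 for Hopx and Emp2, 0.89 for Ager and Akap5 and 0.79 for Rtkn2. Over the 7 with little, it was -0.96 for Rtkn2, -0.86 for Emp2 and Akap5, -0.75 for Hopx and -0.36 for Ager, while Aqp5 (0.86 and 0.43) and Cav1 (0.29 and 0.64) were positive in both sets. In that second set the higher epithelial scores were those of the KPY-Setd2KO tumors. These are descriptions over tumors that share composition and, in part, mice. With the type 2 score, Ager had a Spearman correlation of 0.96 and 0.79 in the 2 sets and Cldn18 0.86 and 0.93, whereas Cav1 had 0 and -0.89.

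**Figure D3:**
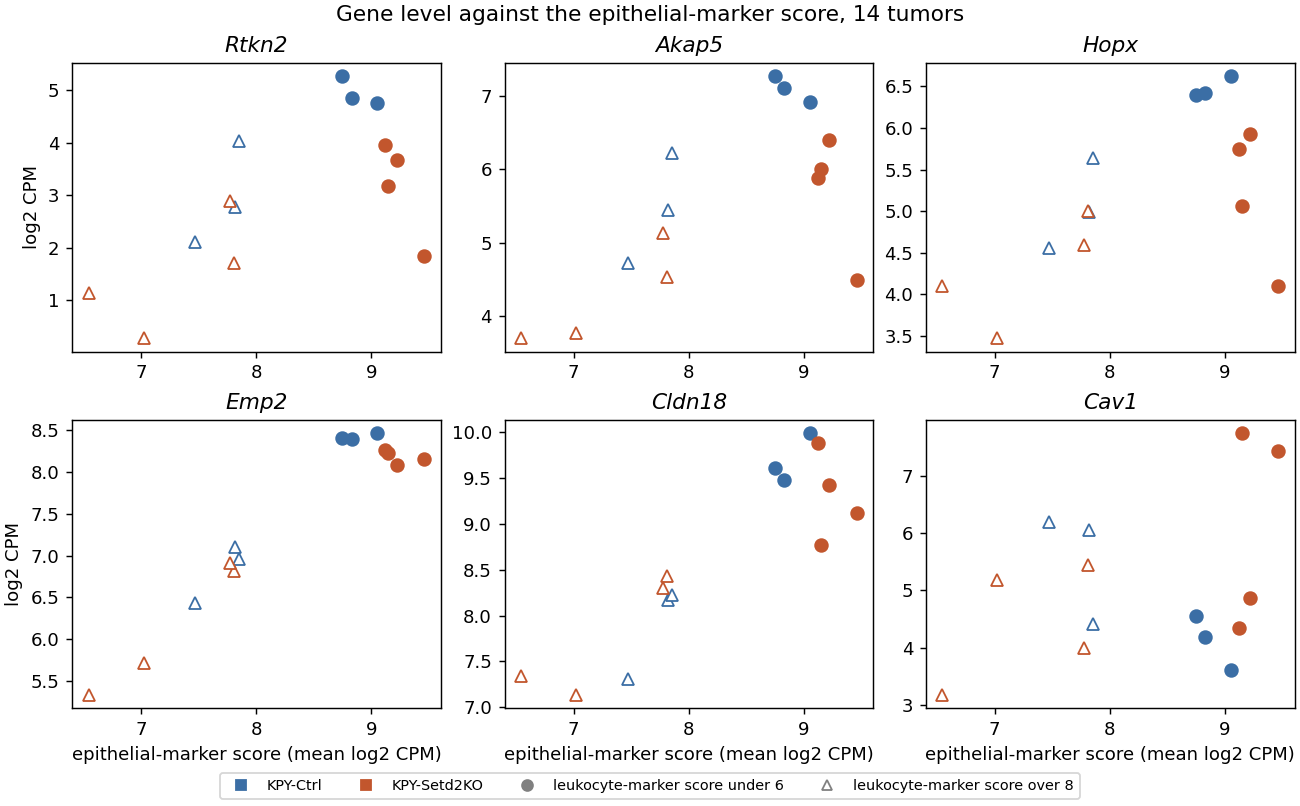
Log2 CPM of 6 of the genes against the epithelial-marker score (mean log2 CPM of 8 markers), 1 point per tumor, with colours for genotype and symbols for the leukocyte-marker score. Rtkn2 and Akap5 rank upward with the score among the open triangles (Spearman correlation 0.79 and 0.89) and downward among the filled circles (-0.96 and -0.86), and Cav1 has 2 KPY-Setd2KO tumors above all others.

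Among pairs of members, Rtkn2 and Akap5 had a Spearman correlation of 0.93 over the 7 tumors with much leukocyte RNA and 0.89 over the other 7, Hopx with Clic5 0.79 and 0.96, and Hopx with Akap5 0.75 and 0.82. Clic5 and Cldn18 (0.89 and 0.75) and Rtkn2 and Emp2 (0.82 and 0.79) were as close. Ager and Aqp5 (0.96 and 0.57) and Ager and Cldn18 (0.79 and 0.86) were other close pairs. Cav1 ranked against Cldn18 (-0.89) and Hopx (-0.86) among the tumors with little leukocyte RNA. In that set Aqp5 was positive only with Ager (0.57) and Cldn18 (0.36), and ran from -0.04 (Hopx) to -0.50 (Akap5) with the other members. Over all 14 tumors, the non-member genes most like Ager were Selenbp1 (Spearman correlation 0.991), Gstz1, Bnipl, Cmtm8 and Plekhd1 (0.987 each), of 12152 candidates, and for these 5 the correlation was at least 0.93 in the set with much leukocyte RNA and at least 0.89 in the other. Those most like the mean of the members were Snx33 and Faah (0.991 each), then Slc34a2, the phosphate transporter of type 2 cells, Pitpnm2 and Lrrc1 (0.987 each).

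With the epithelial-marker score as a covariate, 2 of the 10 type 1 genes were lower in KPY-Setd2KO past both thresholds, against 2.07% of all genes lower and 3.53% in either direction. Rtkn2 had a log2 fold change of -1.55 (95% interval -2.42 to -0.68, adjusted p 0.035) and Akap5 of -1.23 (95% interval -1.85 to -0.60, adjusted p 0.0262). Hopx, at -0.93 (adjusted p 0.0622), Emp2, at -0.40 (0.0645), and Pdpn, at -0.64 (0.144), did not pass, and neither did Clic5, Ager, Cldn18, Aqp5 and Cav1. The fit took a common slope on the score for all tumors. Within the sets with much and with little leukocyte RNA, however, Rtkn2 (Spearman correlation 0.79 and -0.96) and Akap5 (0.89 and -0.86) ranked in opposite directions with it. How far this shaped the 2 calls was not tested. With the epithelial score subtracted, 7 of 8 KPY-Setd2KO tumors lay under the lowest KPY-Ctrl tumor for Akap5 and 6 of 8 for Rtkn2 and for Hopx. On this scale a tumor with a higher score is lowered more. Among tumors with little leukocyte RNA, the higher scores were those of KPY-Setd2KO. The share of all genes with 6 or 7 such tumors was not counted. None of the 10 separated the genotypes without overlap on that scale either (0.499% of genes lower, 0.725% in either direction). With the leukocyte-marker score as covariate instead, 0 of the 10 passed (edgeR, background 2.15%, 4 lower at an unadjusted p under 0.05 against 12.3% of all genes). Akap5 was then at -1.08 (adjusted p 0.0735), Rtkn2 at -1.35 (0.091) and Hopx at -0.81 (0.144).

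Leaving out 1 tumor at a time under the epithelial covariate, Akap5 kept its call in 11 of 14 fits and Rtkn2 in 7 of 14. The log2 fold change stayed between -1.37 and -1.04 for Akap5 and between -1.73 and -1.35 for Rtkn2. Akap5 lost its call without KPY-Ctrl replicate 4 or 5 or KPY-Setd2KO replicate 4, with an adjusted p of up to 0.0702. Rtkn2 lost it without KPY-Ctrl replicate 3, 4, 5 or 6 or KPY-Setd2KO replicate 4, 5 or 8, with an adjusted p of up to 0.0934. With 5 epithelial markers in place of 8, Rtkn2 had an adjusted p of 0.0535 and Akap5 of 0.0441. The part of tumor composition in these differences was not tested.

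**Figure D4:**
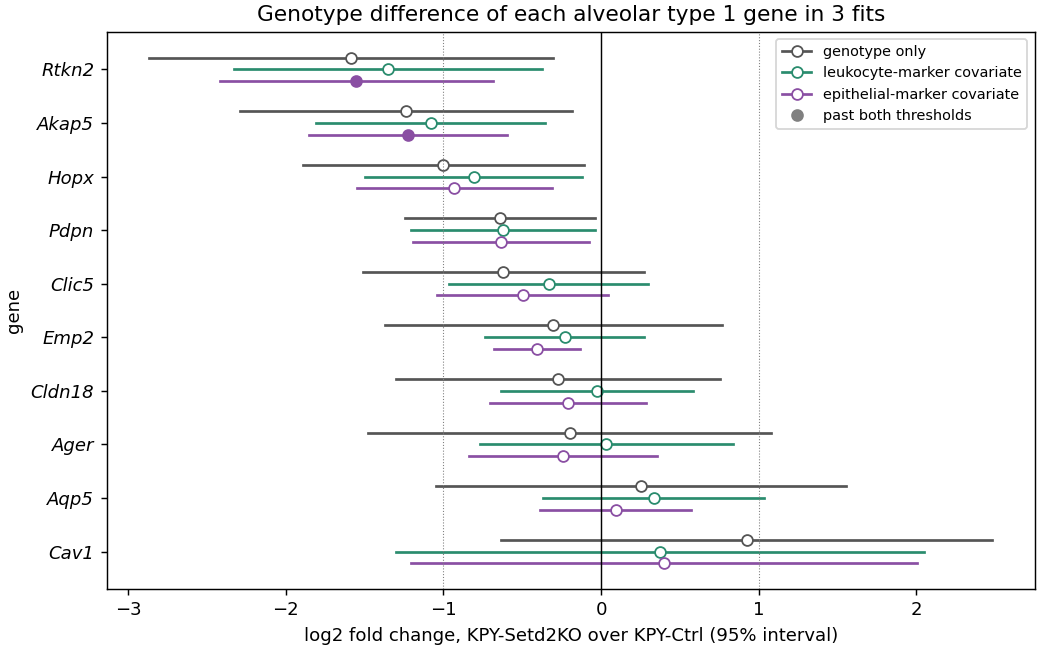
Log2 fold change of KPY-Setd2KO over KPY-Ctrl with its 95% interval for each gene in 3 fits, with filled points where both thresholds were passed and dotted lines at a log2 fold change of -1 and 1. The intervals narrow with either covariate for 9 of the genes and widen for Cav1, and the filled points are Rtkn2 (-1.55) and Akap5 (-1.23) with the epithelial-marker score.

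Of 20 further type 1 genes, all tested, 0 were called on genotype alone by edgeR or by DESeq2. By edgeR 4 were lower at an unadjusted p under 0.05, against 6.8% of all genes, and none higher, and the list's median log2 fold change was -0.41. The 4 were Col4a3 (-1.41, standard error 0.44, adjusted p 0.188) and Col4a4 (-1.09), chains of the alveolar basement membrane collagen, Scnn1g (-1.58, the gamma subunit of the epithelial sodium channel) and Cavin2 (-1.29). With the epithelial covariate 6 of the 20 had an adjusted p under 0.05, all lower, against 4.53% of all genes, and 3 of them, Cavin2 (-1.34, adjusted p 0.0283), Col4a3 (-1.27, 0.0266) and Col4a4 (-1.02, 0.0329), also passed the fold threshold, against 2.07% of all genes. Timp3, Tspan8 and Gprc5a completed the 6, the last at -0.47. With the leukocyte covariate only Cavin2 passed both thresholds (-1.28, adjusted p 0.0309). With the leukocyte-marker score 16 of the 20 fell, against 28.4% of all genes.

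**Figure D5:**
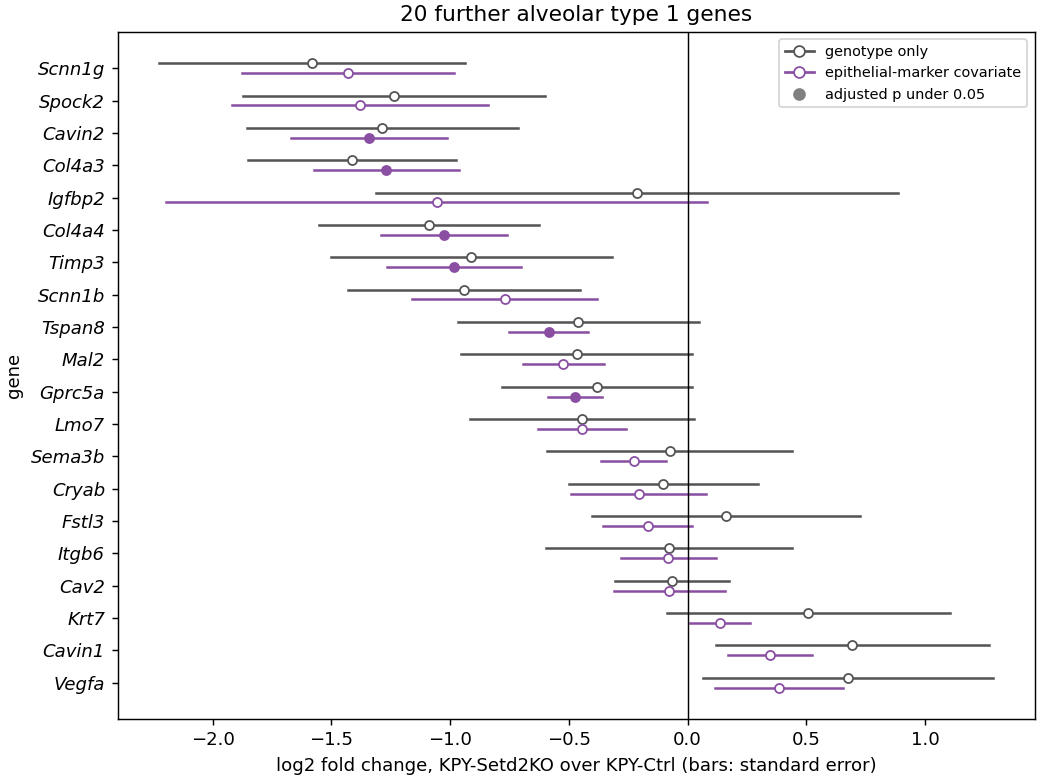
Log2 fold change of KPY-Setd2KO over KPY-Ctrl with its standard error for 20 further type 1 genes, on genotype alone (grey) and with the epithelial-marker score as covariate (purple), filled at an adjusted p under 0.05. The 6 filled points are all below 0, from Cavin2 (-1.34) to Gprc5a (-0.47).

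Of 15 tested regulators of the type 1 state, 0 passed on genotype alone by edgeR. Tbx3 alone had an unadjusted p under 0.05, against 13.7% of all genes. It was higher in KPY-Setd2KO (1.46), at means of only 0.19 CPM in KPY-Ctrl and 0.54 CPM in KPY-Setd2KO. With the epithelial covariate Gata6 (-0.86, adjusted p 0.0217) and Tead1 (-0.71, 0.0331) were lower, against 4.53% of all genes, and neither passed the fold threshold. Gata6 is a lung endoderm factor and Tead1 a DNA-binding partner of Yap and Taz. Nkx2-1, the lineage factor of lung epithelium, was at a log2 fold change of -0.42 (adjusted p 0.831). Of 8 Yap and Taz target genes 0 passed, the largest difference being 1.82 for Ankrd1 (adjusted p 0.331). None of the 12 genes of the transitional state passed on genotype alone by edgeR either. At an unadjusted p under 0.05, 3 were higher and 0 lower, against 13.7% of all genes in either direction. Nupr1, a stress-induced chromatin protein, averaged 38.1 ± 21.4 CPM (SD, n = 6) in the control tumors, KPY-Ctrl, and reached 135 ± 45.8 CPM (SD, n = 8) with the Setd2 guide, a log2 fold change of 1.82 with an adjusted p of 0.116 on genotype alone and 0.0126 with the epithelial covariate. Sfn, the 14-3-3 sigma protein, was at 1.02 (adjusted p 0.277) on genotype alone and 0.90 (0.017) with that covariate. Cldn4 (0.77, adjusted p 0.0132 with the covariate) is itself 1 of the 8 genes of the epithelial score.

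Among relatives of the members, of 4 tested paralogs of Clic5, Clic6 had a log2 fold change of -2.21 (adjusted p 0.139) on genotype alone. It was at -2.23 (0.0159) with the epithelial covariate, where it passed both thresholds, against 2.07% of all genes lower. Of 9 other claudins, Cldn2, a pore-forming claudin, was at -1.66 (adjusted p 0.23) and -1.77 (0.00949) in those fits, also past both thresholds in the latter. Cldn4 went the other way with the covariate (0.77, adjusted p 0.0132), short of the fold threshold. Of 5 tested ligands and partners of Ager, Hmgb1 was at 0.45 in both fits (adjusted p 0.2 and 0.0498), short of the fold threshold. No paralog of Emp2 and none of 3 tested aquaporins passed in either fit. Of the 11 type 2 markers, Sftpb (-0.95, adjusted p 0.0217) and Abca3 (-0.84, 0.0497) were lower with the epithelial covariate, against 4.53% of all genes. The list of type 2 markers had a median log2 fold change of -0.56 on genotype alone, beside -0.46 for the type 1 members. A difference between these lists was not tested.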

How the data were processed

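RNA was measured in 14 tumors, 6 of them KPY-Ctrl. Deposited by the authors were estimated counts for each Ensembl gene, not normalized, made with Salmon 0.8.2 against GRCm38.p5 per the labels. The annotation release, the step from transcripts to genes and the strand setting are not given in the sources used here. Values of the most abundant genes were written with 3 digits. Counts were rounded to whole numbers. Symbols, positions and exon lengths came from GENCODE vM21, which matched 52403 of 52550 identifiers, and promoter sequences from RefSeq (GRCm38.p6).

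Tests used edgeR 4.0.16 under R 4.3.3 (TMM, filterByExpr, robust quasi-likelihood test, Benjamini-Hochberg adjustment over all genes tested), and every p not otherwise credited is from it. Calls on genotype required an adjusted p under 0.05 with a log2 fold change beyond 1 in either direction. DESeq2 1.42.0, marker-score covariates, other normalizations and filters, a replicate block and leaving out each tumor were alternatives. Log2 CPM used a prior count of 2. The procedure was tested on simulated counts. No 2 tumors agreed within sampling noise. The closest pair, KPY-Ctrl replicates 4 and 5, had a chi-square per gene of 22.0, and the next closest, KPY-Setd2KO replicates 7 and 8, had 73.7. Whether the tumors of either pair shared a mouse is not stated. The spread between tumors, more than depth, limits the comparisons.

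The members and gene lists were chosen with earlier results of these data known. Named genes were the members, Setd2, and in each list those called, with the smallest p or the largest change, though not all of these are given. The 5 genes most like Ager or the mean of members were ranked by Spearman correlation among genes with a mean log2 CPM over 1. The macrophage, club and ciliated, mesothelial, fibroblast and endothelial lists had no gene past the adjusted threshold on genotype, with or without a covariate. An allele that both groups carry is not reported here.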

Additional observations from a re-analysis of the deposited data

How the results depend on the processing

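Without the epithelial-marker covariate, 0 of the 10 type 1 genes were called in any setting. These were TMM, RLE or library-size scaling, either filter, DESeq2, the adjusted p alone, the replicate block, the leukocyte-marker covariate and leaving out any tumor. The median log2 fold change of the 10 ranged from -0.63 to -0.27 when tumors were left out, and was -0.79 with the replicate block, where Ager was at -0.92 and Cldn18 at -0.62. Over all genes the calls went from 0 to 456 with DESeq2, 362 with the leukocyte-marker covariate and 595 with the epithelial-marker covariate, and ranged from 0 to 1 when tumors were left out. With the epithelial-marker covariate 2 members and 3 further type 1 genes were called, and with the leukocyte-marker covariate 1 further type 1 gene. Alternatives chosen after seeing the data were 5 epithelial markers (1 member called), DESeq2 with the epithelial score (2 called, Rtkn2 and Akap5), leaving out each tumor under that covariate (0 to 3 called) and the covariate with the replicate block (0 called). The cause of these differences was not tested.

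Leaving out tumors, Ager ranged from -0.55 to 0.19 (log2 fold change; the highest without KPY-Ctrl replicate 3) and Aqp5 from -0.022 (without KPY-Setd2KO replicate 7) to 0.70, with -0.0045 without replicate 8. Over the same fits Emp2 ranged from -0.47 to -0.15 (the latter without KPY-Setd2KO replicate 2), Clic5 from -0.78 to -0.38 and Cldn18 from -0.52 to -0.015. Ager turned to 0.033 with the leukocyte-marker covariate. Under the epithelial-marker covariate Aqp5 turned to -0.027 without KPY-Setd2KO replicate 7. The replicate numbers share only a number: the correlations of same-numbered tumors' deviations ran from -0.66 to 0.66. With the replicate block over replicates 1 to 6, Aqp5 was at -0.54 (-0.20 with the epithelial covariate), Pdpn at 0.061 per unit of leukocyte score, and 4 members and 4850 genes were associated with that score. Leaving out tumors, that association held for 8 members in every fit and for 8833 to 9860 genes.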
